A study of Mus musculus with 7 samples.

Results

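The genes described here are 10 that build and cap actin filaments: the tropomyosins Tpm1, Tpm2, Tpm3 and Tpm4, the tropomodulins Tmod1, Tmod2, Tmod3 and Tmod4, and the leiomodins Lmod2 and Lmod3. They were chosen by gene symbol, and all 10 were found once each among the 37975 genes of the authors' expression table. MyoD peaks were joined to them where the summit lay in or within 10 kb of the gene's locus in that table, which gave 12 of 10756 peaks.

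Tropomyosins are coiled-coil proteins that lie end to end along actin filaments. In striated muscle they hold the troponin complex and move with it to open or close the myosin sites on actin. Tropomodulins cap the pointed end of the filament, the end away from the Z-disc, and bind tropomyosin there. Leiomodins are related to tropomodulins and promote actin nucleation and thin filament elongation. Each tropomyosin gene yields several proteins through alternative promoters and exons, so 1 gene can supply muscle and cytoskeletal forms, and a value per gene sums over them.

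The cells were mouse primary myoblasts grown from satellite cells, the muscle stem cells, which were sorted from mice of 4 to 6 weeks. Polyadenylated RNA was sequenced from 2-day myotubes, kept for 48 hours in medium with 5% horse serum, and from myoblasts in growth medium, both with an empty retroviral vector. The muscle transcription factor MyoD, which binds DNA through a basic helix-loop-helix domain, was located on DNA by ChIP, chromatin immunoprecipitation with sequencing, in 2-day myotubes; that label names no vector. Each group had 1 sample, strain and genotype were not given, and 4 histone ChIP samples were not analysed here.

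Expression was given as FPKM, which scales fragments to transcript length and to the fragments mapped, with 1 value per gene and condition. Levels can therefore be set side by side between genes, but no difference had a replicate check here. Read totals are not known here. Of 2931 untested genes above 0 in both conditions, 191 shared 1 ratio of their values, which corresponds to a myoblast library 1.08 times as deep as the myotube one if FPKM was scaled to depth. Each log2 fold change is given with the standard error (SE) that the authors' own test statistic implies. Called genes are those with a mark of significance from the authors, all of them at a q (p adjusted over all tested genes) of at most 0.05. Of 10 muscle identity genes, 6 (Myog, Des, Ckm, Myh3, Mef2c and Tnnt3) were marked higher in 2-day myotubes by the authors' deposited table, against 6.52% of all tested genes. Another 2 (Pax7 and Myf5) were marked lower, against 17.3% of all tested genes, while Myod1 and Cdh15 were left uncalled. After centring on the median of tested genes Myf5 lost its call, with q = 0.0878 by the Benjamini-Hochberg method. Bulk RNA does not tell a change in RNA per cell from a change in the share of cells that carry it.

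The promoters of the members that changed are shown first, because MyoD binds the E-box, the motif CANNTG. Windows from RefSeq, build GRCm38.p6, run from 250 bases before to 50 after the transcript start and were found for 8 of the 10 members, in 10 windows. Tpm3 and Tmod2 had 2 windows each, and none was found for Tmod3 and Lmod3. Windows of 6 members called higher or lower are printed, for Tmod2 the first of its 2; those of Tpm3 and Tmod4, which were not called, are not. Each is given as its first 270 bases, 5′ to 3′, with every CANNTG in capitals; the last 20 bases lie past the start. The printed regions are Tpm1 chr9:67049194-67049463 (minus strand), Tpm2 chr4:43523535-43523804 (minus strand), Tmod1 chr4:46038972-46039241 (plus strand), Lmod2 chr6:24597521-24597790 (plus strand), Tpm4 chr8:72135038-72135307 (plus strand), Tmod2 chr9:75611306-75611575 (minus strand). The first 4 belong to genes higher in myotubes and the last 2 to genes that were lower.
Tpm1: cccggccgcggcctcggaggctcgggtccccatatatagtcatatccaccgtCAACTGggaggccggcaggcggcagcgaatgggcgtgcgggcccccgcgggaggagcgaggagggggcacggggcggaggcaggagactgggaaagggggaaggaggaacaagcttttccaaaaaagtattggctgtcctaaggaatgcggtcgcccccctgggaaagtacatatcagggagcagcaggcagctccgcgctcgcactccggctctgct
Tpm2: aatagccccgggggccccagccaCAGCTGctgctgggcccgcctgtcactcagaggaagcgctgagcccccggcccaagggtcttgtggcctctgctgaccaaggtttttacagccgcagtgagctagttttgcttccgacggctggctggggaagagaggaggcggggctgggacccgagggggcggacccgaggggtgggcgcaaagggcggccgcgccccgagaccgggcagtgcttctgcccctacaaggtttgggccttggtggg
Tmod1: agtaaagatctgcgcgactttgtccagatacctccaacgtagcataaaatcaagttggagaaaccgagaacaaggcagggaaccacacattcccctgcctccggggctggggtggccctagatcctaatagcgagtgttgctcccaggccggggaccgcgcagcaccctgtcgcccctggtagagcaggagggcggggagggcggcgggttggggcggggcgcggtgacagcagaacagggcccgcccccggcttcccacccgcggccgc
Lmod2: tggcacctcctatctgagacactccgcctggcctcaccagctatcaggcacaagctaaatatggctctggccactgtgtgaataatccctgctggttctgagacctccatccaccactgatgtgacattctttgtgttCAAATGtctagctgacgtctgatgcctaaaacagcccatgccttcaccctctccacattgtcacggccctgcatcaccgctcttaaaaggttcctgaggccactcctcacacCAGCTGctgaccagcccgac
Tpm4: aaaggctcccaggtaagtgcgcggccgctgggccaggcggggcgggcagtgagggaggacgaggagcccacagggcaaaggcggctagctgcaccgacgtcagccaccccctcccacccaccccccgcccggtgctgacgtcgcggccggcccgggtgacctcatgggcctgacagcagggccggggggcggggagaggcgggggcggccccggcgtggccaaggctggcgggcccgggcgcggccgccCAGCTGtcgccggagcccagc
Tmod2: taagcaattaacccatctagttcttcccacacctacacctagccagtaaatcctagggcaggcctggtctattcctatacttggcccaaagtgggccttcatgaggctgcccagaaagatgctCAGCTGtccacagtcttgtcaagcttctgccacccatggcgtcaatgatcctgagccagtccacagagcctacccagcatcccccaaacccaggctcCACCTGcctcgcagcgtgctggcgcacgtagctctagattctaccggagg

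CANNTG stood in 9 of the 10 windows, against 72.3% of the 32851 windows in the RefSeq table. CAGCTG, an E-box well known from MyoD sites, which is its own reverse complement and is also counted in CANNTG, stood in 5 of the 10, against 16.3% of all windows. Those 5 were at Tpm2, Tpm3, Tpm4, Tmod2 and Lmod2, so the motif stood both at members that were higher and at members that were lower in myotubes. In Tpm2 it began 227 bases before the start. In Lmod2 it began at the first transcribed base, and in Tpm4 it began 1 base before the start. CACCTG or its reverse complement CAGGTG, likewise a subset of CANNTG, stood in the first Tmod2 window and at Tmod4, against 20.2% of all windows. The Tmod1 window held no CANNTG, and the Tpm1 window held a single one, CAACTG. These matches describe letters in 1 window of another build and say nothing of binding.

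All 10 members were tested by the authors, and 9 had a mean of at least 1 FPKM, the exception being Tmod2. The authors' deposited table called 5 members higher in myotubes (Tpm1, Tpm2, Tmod1, Lmod2 and Lmod3), against 6.52% of all 15966 tested genes. It called another 3 lower (Tpm4, Tmod2 and Tmod3), against 17.3% of all tested genes. Tpm3 and Tmod4 were not called. On the log2 scale with 1 FPKM added to both values, the members had a median ratio of 1.55 and all tested genes one of -0.38. Over the 15416 tested genes with values above 0 in both conditions, the median deposited log2 fold change was -0.41. After subtraction of that median, the same 5 members were called higher, against 10.2% of these genes. Tpm4 alone stayed called lower after it, against 10.3%, by the Benjamini-Hochberg method on p from the implied errors.

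**Figure D1:**
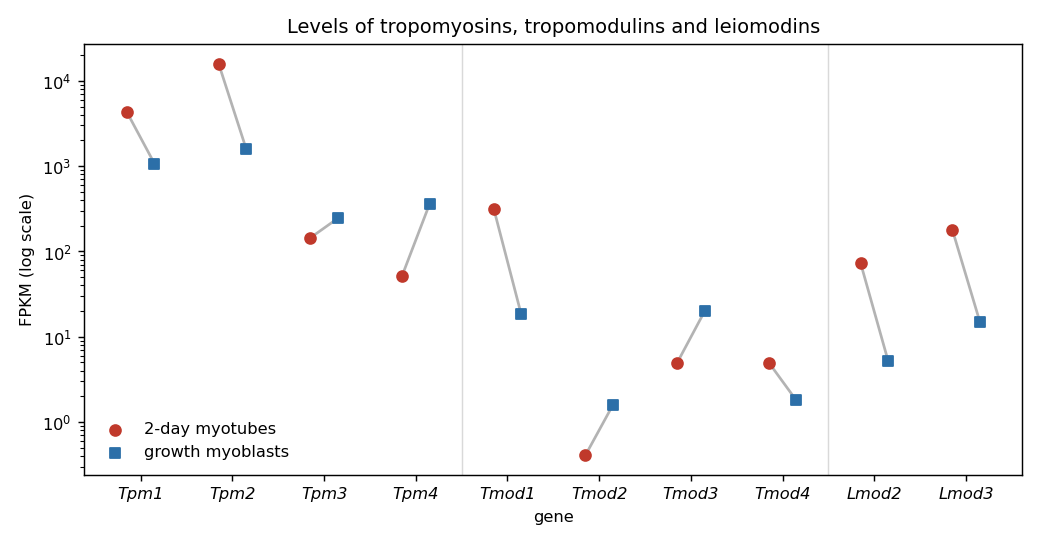
FPKM on a log scale for each of the 10 genes, with 2-day myotubes as circles left of growth myoblasts as squares, 1 value each, so no error is drawn. Tpm2 is the highest point in both conditions, at 15950 FPKM in myotubes, and Tmod2 the lowest, at 0.409 FPKM in myotubes.

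Among the tropomyosins, Tpm2, which encodes the beta form of striated muscle, had 15950 FPKM in 2-day myotubes and 1602 FPKM in growth myoblasts. It ranked 12 among all tested genes in myotubes and 112 in myoblasts. Its log2 fold change in the authors' deposited table was 3.32 (SE 0.43, q = 1.49e-12), a 9.96-fold rise. Tpm1, the alpha form, had 4299 FPKM in myotubes and 1074 in myoblasts. In the authors' deposited table it rose 4.00-fold, a log2 fold change of 2.00 (SE 0.30, q = 3.14e-09). Tpm1 ranked 40 in myotubes and 168 in myoblasts, so both genes were near the top of the table before differentiation.

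Tpm4, the source of a cytoskeletal tropomyosin of non-muscle cells, went the other way. It had 51.6 FPKM in myotubes and 359 FPKM in myoblasts. Its log2 fold change was -2.80 in the authors' deposited table (SE 0.49, q = 4.94e-07), so that myoblasts held 6.95 times the myotube level. A second tested gene in the same locus, Gm16091, stood at 0.260 FPKM in myotubes and 4.93 in myoblasts and was likewise called lower in the authors' deposited table. Whether the counting used strand is not stated, so reads of overlapping genes cannot be told apart.

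Tpm3, which supplies a slow-fibre tropomyosin and cytoskeletal forms, had 144 FPKM in myotubes and 245 in myoblasts. In the authors' deposited table its log2 fold change was -0.76 (SE 0.33, q = 0.0787), short of a call. Tpm3-rs7, which RefSeq annotates as a pseudogene, was listed at 53.0 FPKM in myotubes and 153 in myoblasts, also not called in the authors' deposited table (q = 0.0831). How reads shared between such copies were assigned is not given, so the Tpm3 values are uncertain.

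For every pair of tropomyosins the 95% interval of the difference in log2 fold change excluded 0. The smallest difference, Tpm2 minus Tpm1, was 1.32 with a 95% interval of 0.29 to 2.34, from the authors' deposited table. Tpm3 minus Tpm4 was 2.04, with an interval of 0.87 to 3.20, from the authors' deposited table. The largest, Tpm2 minus Tpm4, was 6.11, with an interval of 4.83 to 7.39, from the authors' deposited table. These intervals take the errors of the genes as independent, and 13 pairs within families were compared.

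The summed FPKM of the 4 tropomyosins was 20445 in myotubes and 3280 in myoblasts, a ratio of 6.23. Tpm2 made up 78.0% of that sum in myotubes and 48.8% in myoblasts. Tpm1 made up 21.0% in myotubes and 32.8% in myoblasts, a smaller share although its own level was higher. Tpm4 accounted for 0.252% in myotubes and 10.9% in myoblasts, and Tpm3 for 0.706% in myotubes and 7.47% in myoblasts. The myotube tropomyosin pool was thus nearly all Tpm1 and Tpm2 by FPKM, while the myoblast pool held all 4 genes.

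**Figure D2:**
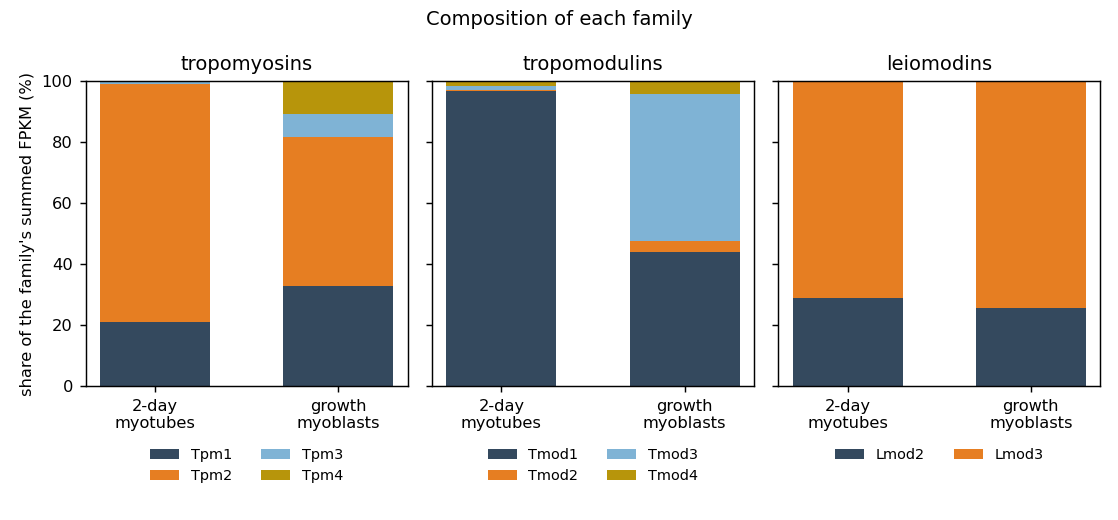
Share of each family's summed FPKM, in percent, held by each gene in 2-day myotubes (left bar of each panel) and growth myoblasts (right bar). Tmod1 takes 96.8% of the tropomodulin sum in myotubes and 43.9% in myoblasts, while the leiomodin bars are close, with Lmod3 at 71.1% in myotubes and 74.2% in myoblasts.

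Among the tropomodulins, Tmod1, the form of striated muscle, red cells and lens, had 317 FPKM in 2-day myotubes and 18.3 FPKM in growth myoblasts. The authors' deposited table gave it a log2 fold change of 4.12 (SE 0.45, q listed as 0), a 17.4-fold rise and the largest among the 10 genes. Its locus in that table is shared with 4 other tested genes. Of these 4, Ncbp1, at 66.5 FPKM in myotubes and 89.0 in myoblasts, Xpa, at 24.4 in myotubes and 19.0 in myoblasts, and a row of the small RNA 7SK, at 1.35 in myotubes and 3.76 in myoblasts, were not called in the authors' deposited table. Tstd2, at 22.1 in myotubes and 46.2 in myoblasts, was called lower in the authors' deposited table. Tmod1 was thus the only tested gene of its locus called higher.

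Tmod3, the widely expressed tropomodulin of non-muscle cells, had 4.95 FPKM in myotubes and 19.9 in myoblasts. In the authors' deposited table its log2 fold change was -2.01 (SE 0.68, q = 0.0168), and after centring q by the Benjamini-Hochberg method was 0.0798, so the call was lost. Tmod2, the neuronal tropomodulin, had 0.409 FPKM in myotubes and 1.59 in myoblasts. Its log2 fold change was -1.96 in the authors' deposited table (SE 0.74, q = 0.0363), and its centred q, by the Benjamini-Hochberg method, was 0.132. At such levels few reads carry the ratio. Tmod4, a skeletal muscle tropomodulin, was also low, with 4.97 FPKM in myotubes and 1.79 in myoblasts, and was left uncalled in the authors' deposited table (log2 1.47, SE 1.01, q = 0.319).

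In myotubes Tmod1 thus held 96.8% of the tropomodulin sum and Tmod3 1.51%, whereas in myoblasts Tmod1 held 43.9% and Tmod3 47.9%. The sum itself was 328 FPKM in myotubes and 41.6 in myoblasts. Tmod1 minus Tmod3 was 6.13 on the log2 scale, with a 95% interval of 4.53 to 7.72, from the authors' deposited table. Tmod1 minus Tmod4 was 2.65, with an interval of 0.48 to 4.81, from the authors' deposited table, Tmod4 itself being uncalled. Between Tmod3 and Tmod2 the difference was 0.05 (Tmod2 minus Tmod3), and its interval, -1.91 to 2.01, leaves room for a sizeable difference either way in the authors' deposited table.

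**Figure D3:**
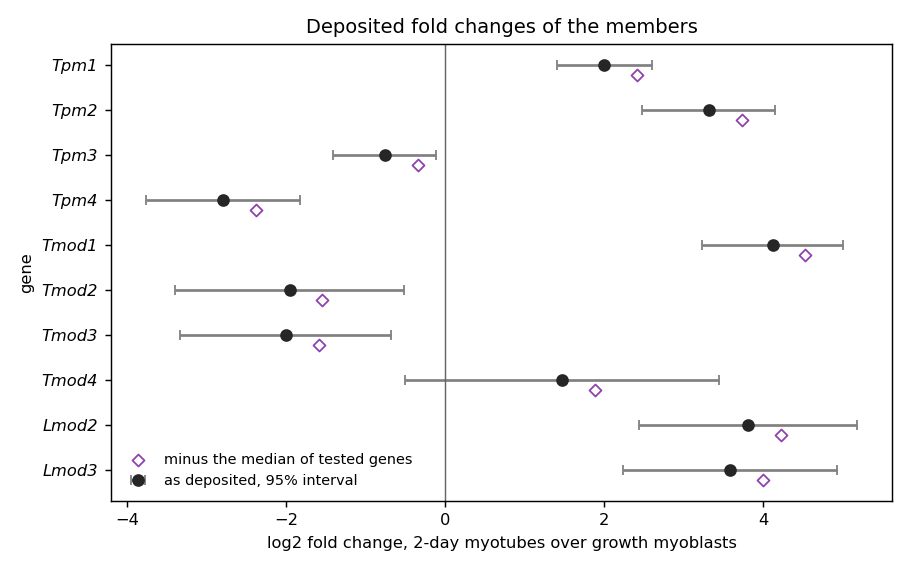
Log2 fold change of 2-day myotubes over growth myoblasts for each of the 10 genes, as deposited by the authors (filled, bars of the 95% interval from the implied SE) and after subtraction of -0.41, the median of tested genes (open diamonds). The unadjusted intervals of 9 genes lie to 1 side of 0, that of Tpm3 included although its q missed the call, and that of Tmod4 spans 0.

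Both leiomodins rose. Lmod3, the leiomodin of skeletal muscle, whose loss in humans causes nemaline myopathy, had 181 FPKM in 2-day myotubes and 15.1 FPKM in growth myoblasts. In the authors' deposited table its log2 fold change was 3.58 (SE 0.68, q = 4.34e-06). Lmod2, the form best known from heart, had 73.3 FPKM in myotubes and 5.23 in myoblasts, with a log2 fold change of 3.81 in the authors' deposited table (SE 0.70, q = 1.55e-06). Lmod2 minus Lmod3 was 0.22, with an interval of -1.69 to 2.14, from the authors' deposited table, so no difference between them was resolved. Lmod3 took 71.1% of the leiomodin sum in myotubes and 74.2% in myoblasts. Lmod1, the smooth muscle leiomodin and not one of the 10, was listed at 1.53 FPKM in myotubes and 0.417 in myoblasts and was left uncalled in the authors' deposited table (q = 0.0584).

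**Figure D4:**
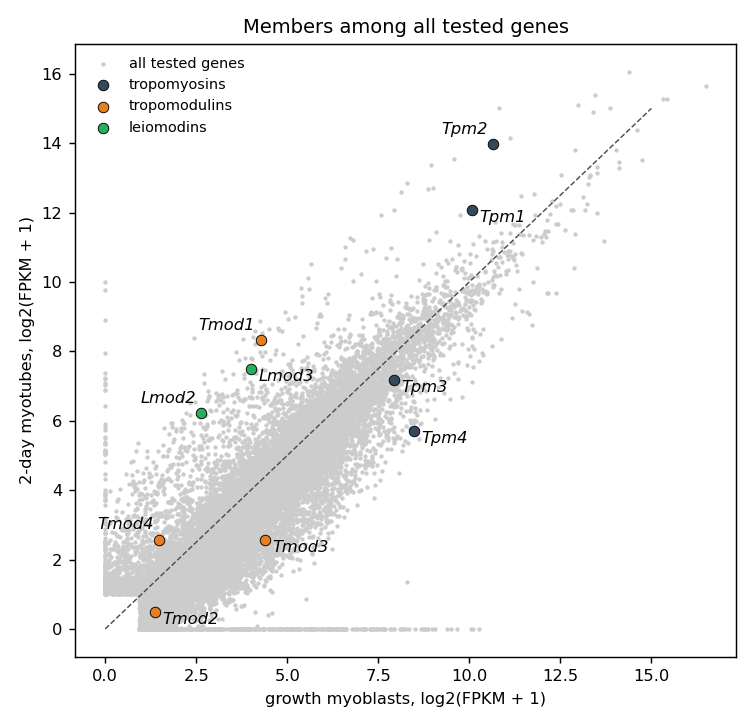
Each grey point is 1 of the 15966 tested genes, with log2(FPKM + 1) in 2-day myotubes on the vertical axis and in growth myoblasts on the horizontal axis; the dashed line marks equal levels. Tpm1, Tpm2, Tmod1, Lmod2, Lmod3 and Tmod4 lie above the line and Tpm3, Tpm4, Tmod2 and Tmod3 below it.

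In order of level, 2-day myotubes ran Tpm2, Tpm1, Tmod1, Lmod3, Tpm3, Lmod2, Tpm4, Tmod4, Tmod3 and Tmod2. Growth myoblasts ran Tpm2, Tpm1, Tpm4, Tpm3, Tmod3, Tmod1, Lmod3, Lmod2, Tmod4 and Tmod2. With 1 value per condition, no spread over samples separates neighbours in either order, and Tmod4 and Tmod3 in myotubes, at 4.97 and 4.95 FPKM, were all but equal. In the plane of both log2(FPKM + 1) levels, the tested genes nearest Tpm2 were Cryab, a small heat shock protein gene, at 18141 FPKM in myotubes and 2231 in myoblasts, then Mylpf, the fast regulatory myosin light chain, and Acta1, the skeletal actin. Nearest Tmod1 were C130080G10Rik, Myh8, the perinatal myosin heavy chain, at 341 FPKM in myotubes and 15.8 in myoblasts, and Itgb1bp2. Over 2 conditions such nearness is a description only.

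The other thin filament genes give the setting. Actins, troponins and nebulins of the sarcomere had 13 of 15 tested rows, for 13 genes, called higher by the authors' deposited table and 2 lower, those of Nebl and Tnni3, with a median log2 ratio of 3.81. Tnnc2, the fast troponin C that triggers the tropomyosin shift, had 7453 FPKM in myotubes and 311 in myoblasts. Actc1, the cardiac actin of early muscle, had 6148 FPKM in myotubes and 280 in myoblasts. The larger of the 2 rows for Tnnc1, the slow and cardiac troponin C, had 3884 FPKM in myotubes and 189 in myoblasts. The median ratio of this list lay above the log2 ratios of Tpm1 and Tpm2 and below that of Tmod1.

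Genes of barbed end capping and filament assembly had 8 of 15 tested called higher by the authors' deposited table, against 6.52% of all tested genes. In that list 1, Fhod1, was called lower, and the median log2 ratio was 1.69. Kbtbd5, now Klhl40, whose product stabilises nebulin and leiomodin 3, had 105 FPKM in myotubes and 9.17 in myoblasts (log2 3.51, SE 0.68, q = 6.39e-06, authors' deposited table). Unc45b, a myosin chaperone, had 161 FPKM in myotubes and 5.56 in myoblasts, and Actn2, an alpha-actinin of the Z-disc, had 903 in myotubes and 40.7 in myoblasts. Capza1, Capza2 and Capzb, whose products cap the opposite filament end to the tropomodulins, were not called in the authors' deposited table. Cytoplasmic actins and filament turnover genes had 11 of 25 tested called lower in the authors' deposited table, against 17.3% of all tested genes. In this list 0 were called higher, against 6.52%, and the median log2 ratio was -1.18, against -0.38 for all tested genes. Tagln2, an actin-binding protein, had 58.5 FPKM in myotubes and 403 in myoblasts, and Cfl1, the non-muscle cofilin that severs filaments, had 232 in myotubes and 1030 in myoblasts.

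Markers of other cells that use these genes were mostly low. Among the red cell markers, Hba-a1, Hbb-b1, Klf1 and Slc4a1 were at 0 in both conditions, and the list summed to 1.46 FPKM in myotubes and 4.89 in myoblasts. Tmod1 had 317 FPKM in myotubes and 18.3 in myoblasts, and the part of red cells in that result was not tested. The 7 neural and Schwann markers summed to 11.7 FPKM in myotubes and 21.9 in myoblasts, with Snap25 and Syt1 at 0 in both. That sum was lower in myotubes, as Tmod2 was, but its members differed in direction. Nefl had 1.87 FPKM in myotubes and 15.1 in myoblasts, whereas Tubb3 had 9.26 FPKM in myotubes and 4.88 in myoblasts. The part of these markers in the Tmod2 result was not tested. The 6 fibroblast markers summed to 2.38 FPKM in myotubes and 16.2 in myoblasts, with Lum at 0 in both, and their part in the lower Tpm4 and Tmod3 was not tested. Smooth muscle and pericyte markers, 8 genes, summed to 2108 FPKM in myotubes and 359 in myoblasts, and Cnn1 was at 0 in both. Acta2, which differentiating myoblasts also express, had 2025 FPKM in myotubes and 227 in myoblasts. Smtn had 70.2 FPKM in myotubes and 52.3 in myoblasts, and Rgs5 had 7.72 in myotubes and 73.1 in myoblasts. The 5 heart markers summed to 42.6 FPKM in myotubes and 8.16 in myoblasts, of which Myh6 gave 42.5 in myotubes and 6.05 in myoblasts. Tnni3 went the other way, with 0 in myotubes and 1.99 in myoblasts, and was called lower in the authors' deposited table. Nppa had 0 in myotubes and 0.119 in myoblasts, Nppb had 0.171 in myotubes and 0 in myoblasts, and Myl7 was at 0 in both. Endothelial markers summed to 2.90 FPKM in myotubes and 5.45 in myoblasts, but they too differed in direction. Pecam1 had 0.213 FPKM in myotubes and 4.62 in myoblasts, whereas Vwf had 2.47 in myotubes and 0.739 in myoblasts. Immune markers summed to 2.83 FPKM in myotubes and 12.0 in myoblasts.

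MyoD peaks were then set beside these genes. The list came from 1 call by the authors in mm9 coordinates, and tags, fold enrichment and false discovery rate are the authors' values for each peak. With a summit in or within 10 kb of the locus, 5 of the 10 members had a peak: Tpm1, Tmod1, Tmod4, Lmod2 and Lmod3. Of all tested genes 38.8% had one. By direction, 4 of the 5 members called higher had a peak, against 58.5% of all genes called higher, and 0 of the 3 called lower, against 38.3% of all genes called lower. These are counts over few genes with no test, and longer loci have more room for a summit.

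Tmod1 had the most, 5 summits, all inside its merged locus (chr4:46051806-46209183). They lay 513, 46475, 49196, 77063 and 77690 bp from the locus start, and RefSeq places Tmod1 first of its 4 named genes on that side. How far Tmod1 itself reaches in mm9 is not in the table. The peak at chr4:46100790-46101212 had 27 tags, 15.2-fold enrichment and a false discovery rate of 2.92%, the lowest among the 12. The peak nearest the start, at chr4:46051913-46052505, had 16 tags, 8.53-fold enrichment and a false discovery rate of 23.4%. By tags, the 3 largest Tmod1 peaks lay deep inside the locus and not at its start.

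Lmod3 had 3 summits at its locus (chr6:97188521-97202774). The summit inside it, 1745 bp from the locus start in the peak chr6:97190188-97190493, had 20 tags, 15.9-fold enrichment and a false discovery rate of 3.40%. The other two lay 5921 and 7450 bp past the locus end, with 7 and 8 tags. Lmod2 had 1 broad peak, chr6:24549376-24550391, its summit 2166 bp inside the locus from the end that holds the RefSeq start. Its 42 tags stood at percentile 96.0 of the list, but its fold enrichment, 7.80, at percentile 4.59. The false discovery rate of this Lmod2 peak was 19.19%.

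Tpm1, on the minus strand, had a single peak near the middle of its locus (chr9:66870396-66897213). The summit lay 12963 bp from the lowest coordinate, with 10 tags, 14.3-fold enrichment and a false discovery rate of 17.35%. Both Tmod4 summits lay before its locus, 6459 and 7164 bp away with 10 and 8 tags, and inside the locus of the neighbouring gene Vps72. Their false discovery rates were 10.92% and 16.83%, in the same order. Tpm2, the most abundant member, had no summit within 10 kb; the nearest lay 15055 bp from its locus, with 15 tags and 7.84-fold enrichment. For Tpm3 the nearest summit was 34916 bp away, for Tmod3 69385 bp, for Tpm4 96267 bp and for Tmod2 137210 bp. Close to the 10 kb limit, the farthest summit counted was the Lmod3 one at 7450 bp, and the first left out were at 10525 bp from Tpm1 and 11277 bp from Lmod3.

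**Figure D5:**
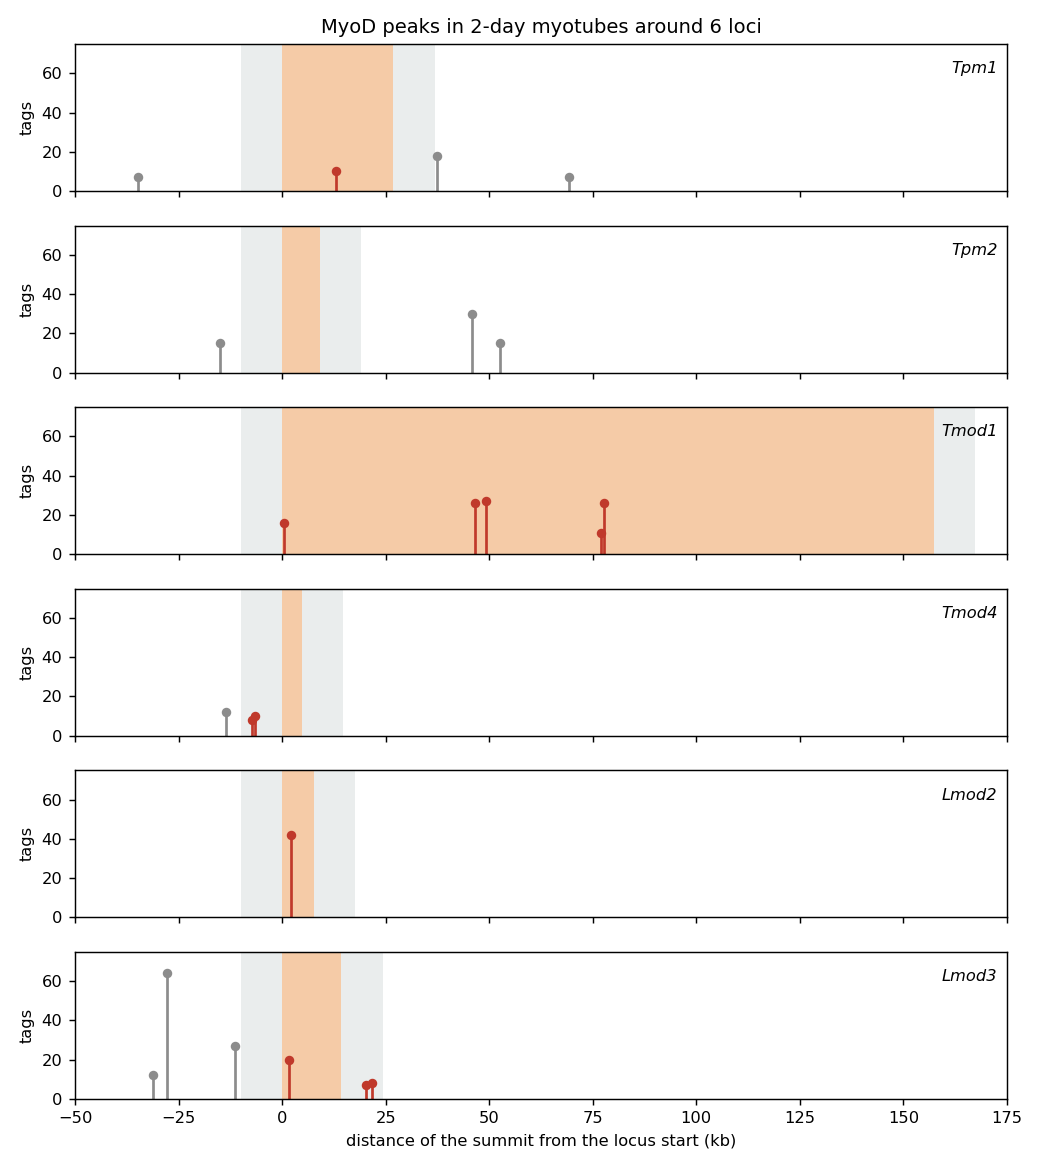
MyoD peak summits within 50 kb of 6 loci, by distance in kb from the lowest coordinate of the locus (horizontal) and tags in the peak (vertical). Orange marks the locus and grey the 10 kb on each side, and red peaks are counted at the gene. Tmod1 carries 5 summits inside its locus, and Tpm2 carries none within 10 kb.

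As a group the 12 peaks were close to the list as a whole. Their median was 13.5 tags and 15.6-fold enrichment, against 14 tags and 15.3-fold for all peaks. A false discovery rate of at most 5% held for 2 of the 12, at Tmod1 and Lmod3, a share of 16.7%, against 19.4% of all peaks.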

How the data were processed

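RNA of 2-day myotubes and of growth myoblasts and MyoD ChIP of 2-day myotubes were used, 3 of 7 samples, each alone in its group. The authors deposited FPKM with their own log2 fold changes, p-values and q-values in a Cuffdiff layout, and Cuffdiff, CASAVA 1.7.0 and build mm9 stand in the submitters' processing notes; 2 identical copies were given and 1 was used. The labels' protocols state sequencing in duplicates, but how these were combined, the aligner, the annotation and the Cuffdiff normalization are not stated. The authors called peaks with MACS, per the file headers, at a p cutoff of 1.00e-05 from 8637045 ChIP and 9129012 control tags; the submitters' processing notes list version 1.3.7. Tags are counts, per the file headers, fold enrichment is a ratio by the authors' caller over local background, and the false discovery rate is a percent, per the file headers. The kind of control is not stated, and the labels' protocols list no antibody against MyoD.

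SEs were the size of the deposited log2 fold change over that of the test statistic; p recomputed from them differed from the deposited p by at most 2.68e-06. Calls across all genes are the authors' Cuffdiff calls; centred calls used the Benjamini-Hochberg method over 15416 genes. Loci are merged regions of the table. The members and lists were chosen with earlier results of these data known. All 10 members are named; of each pathway list the 3 called genes of largest change are named with values, except 1 that is not reported here, others after their values were seen. Peak counts and centred calls were tested on simulated data. Python 3.11.15, numpy 2.4.6, pandas 2.3.3, scipy 1.17.1 and matplotlib 3.10.9 were used.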

Additional observations from a re-analysis of the deposited data

How the results depend on the processing

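The 5 higher members stayed called higher after centring, at a q of at most 0.01 and over genes with a mean of at least 1 FPKM. The count of lower members was 3 as deposited, 1 after centring, 1 at a q of at most 0.01, and 2 with the filter, which leaves out Tmod2. The median log2 ratio of the members ran from 1.17 with 10 FPKM added to 2.00 with the filter, and kept its sign. Members with a peak numbered 4 within 5 kb or inside the locus, 4 when each peak went to the nearest locus alone (Tmod4 was lost to Vps72), 7 within 50 kb, 2 at a false discovery rate of at most 5% and 3 with at least 20 tags. Their peaks numbered 23 within 50 kb, 2 at that rate and 5 with at least 20 tags. A share of all tested genes is given here only for the 10 kb window, so the counts of members at the other settings have no background beside them. The nearest-locus setting cannot divide the Tmod1 peaks among the 5 tested genes that share its merged locus. No paired analysis was possible because each group has 1 sample, and for the same reason no sample could be left out.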

Other observations

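The level of Tpm1 and Tpm2 against the sarcomeric actins can be read from FPKM sums, as values with 1 sample per condition and no error. Tpm1 and Tpm2 together had 20249 FPKM in 2-day myotubes and 2676 in growth myoblasts. The sarcomeric actins Acta1 and Actc1 had 18057 FPKM in myotubes and 1043 in myoblasts. Tpm1 and Tpm2 to Acta1 and Actc1 was thus 1.12 in myotubes and 2.57 in myoblasts. The tropomyosin values sum over muscle and cytoskeletal forms of each gene, which the ratio does not separate. That ratio leaves out the other actins and is no measure of tropomyosin against all actin. Actb had 1019 FPKM in myotubes and 3410 in myoblasts, and Actg1 had 656 in myotubes and 2429 in myoblasts. Acta2 went the other way, with 2025 FPKM in myotubes and 227 in myoblasts. The sum of the 4 tropomyosins was 35.2 times that of the tropomodulins and leiomodins in myotubes and 53.0 times in myoblasts. Acta1 alone was 15.6-fold higher in myotubes and Tpm2 9.96-fold.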
